A study of Mus musculus with 16 samples.

Results

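The comparison described here sets GFP+ cells against GFP- cells from the olfactory mucosa of mice that received vehicle, over 8 of the 16 arrays of the series. The mice carried S100a5-tauGFP, a reporter in which a green fluorescent protein targeted to axons follows S100a5, and both fractions come from reporter mice. Per the labels, 24 mice of both sexes and 7 to 12 weeks of age stayed singly in chambers for 40 h, with clean air at 3.1 L/min. From 26 h on they received vehicle, which was filtered air, or octanol, in pulses of 10 s every 20 min. Mucosa from 3 mice made 1 pool, and fluorescence-activated cell sorting split the dissociated cells of a pool into GFP+ and GFP-. The members were chosen by their titles: 4 vehicle GFP+ and 4 vehicle GFP- arrays, with arrays of the same replicate number taken as 1 pool. The 4 octanol GFP+ and 4 octanol GFP- arrays entered only the estimate of spread and a side-by-side reading at the end. The titles of the vehicle arrays also carry the word octanol in brackets, while their source field says vehicle. A pool averages 3 animals, so spread between individual mice was not measured, and the gate used for GFP is not described in the labels.

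Olfactory sensory neurons each express a single odorant receptor gene out of a large family, and signal through a G protein, adenylyl cyclase and a cyclic nucleotide-gated channel in their cilia. They are replaced throughout life from basal progenitors, pass through an immature stage marked by growth proteins, and as mature neurons express the olfactory marker protein Omp. S100a5 encodes a calcium-binding protein of the S100 family whose expression in these neurons rises with activity, so that the reporter reads out recent or sustained firing. The mucosa also holds sustentacular cells that support the neurons, secretory Bowman glands, microvillar cells, glia, vessels and blood cells.

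The sequences just before the start sites of a reporter gene and of 3 genes that moved in different directions are shown to place the results. They are from the RefSeq annotation of mouse assembly GRCm38.p6, each 250 bases that end just before the gene's start, all on the plus strand. S100a5 at chr3:90608272-90608521 is the gene that the reporter follows. Pcdh10, a cell adhesion protocadherin that was higher in GFP+ cells, is at chr3:45378148-45378397. Fos, an immediate early transcription factor that was lower, is at chr12:85473640-85473889. S100a8, a neutrophil gene that was much lower, is at chr3:90668821-90669070. Capitals mark the cyclic AMP response element core TGACGT in Pcdh10 and Fos and, in S100a8, the reverse complement of the PU.1 site GAGGAAGT.
S100a5: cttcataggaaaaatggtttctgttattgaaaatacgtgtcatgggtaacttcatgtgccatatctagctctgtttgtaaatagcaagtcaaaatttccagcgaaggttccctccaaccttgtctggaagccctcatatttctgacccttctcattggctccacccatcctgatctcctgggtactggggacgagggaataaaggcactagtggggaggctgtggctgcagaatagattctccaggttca
Pcdh10: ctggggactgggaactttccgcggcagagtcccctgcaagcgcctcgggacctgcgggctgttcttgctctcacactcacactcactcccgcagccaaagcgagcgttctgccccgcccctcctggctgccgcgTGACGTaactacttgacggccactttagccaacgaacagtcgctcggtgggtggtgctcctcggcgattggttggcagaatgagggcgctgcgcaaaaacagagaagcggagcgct
Fos: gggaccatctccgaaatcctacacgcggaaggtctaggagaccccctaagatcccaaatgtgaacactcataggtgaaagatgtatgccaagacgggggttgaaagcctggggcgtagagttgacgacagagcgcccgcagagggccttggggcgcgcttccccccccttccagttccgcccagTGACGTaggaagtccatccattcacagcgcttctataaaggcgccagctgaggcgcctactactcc
S100a8: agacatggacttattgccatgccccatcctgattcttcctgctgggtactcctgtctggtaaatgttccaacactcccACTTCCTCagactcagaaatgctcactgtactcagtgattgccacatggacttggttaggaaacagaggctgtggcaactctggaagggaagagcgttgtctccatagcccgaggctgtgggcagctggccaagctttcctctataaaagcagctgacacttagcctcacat
Matches were searched on both strands for 5 motifs, and the core TGACGT lies inside the full element TGACGTCA. The core began 116 bases before the start of Pcdh10 and 66 before that of Fos, and the PU.1 site 172 bases before that of S100a8. The shares below leave out all genes on the chromosome that holds the clustered protocadherins, Syt4 and Dpysl3. Of the 15691 tested genes that were searched, 7.89% held the core, 2.06% the full element and 6.37% the AP-1 site TGANTCA. The PU.1 site was in 2.21%. The EBF site, which is TCCC and GGGA with any 2 bases between them, was in 0.854%. Of the searched genes, 1130 were not odorant receptors and fell at least 2-fold. Their shares were 6.28%, 1.33%, 7.08%, 5.4% and 0.973% in the same order. In the 45 searched genes other than receptors that rose at least 2-fold they were 11.1%, 2.22%, 8.89%, 0% and 0%. The core was added to the search after the full element had given no match in the 4 sequences shown, and the 4 sequences were picked from 8 candidates with the matches in view. A match is a run of letters and was not tested as a binding site.

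The sort separated the fractions in the gene it was built on, by a modest amount. S100a5 measured 16.92, 17.02, 16.75 and 16.91 log2 in the GFP+ arrays of pools 1 to 4, and 16.11, 16.10, 16.31 and 15.79 in the GFP- arrays. All GFP+ arrays lay above all GFP- arrays, and the level was 1.77-fold higher, a difference of 0.82 log2. The sort selected on this gene's reporter, so its difference is a check and not a result. Omp measured between 18.16 and 18.21 log2 in GFP+ and between 18.07 and 18.16 in GFP- arrays, with a difference of 0.07 (SE 0.09, adjusted p = 0.613). With arrays centred on their median Omp was called higher (0.40, adjusted p = 0.00334). Its difference was -0.02 after quantile normalization and -0.24 with arrays centred on their odorant receptors. Mature neuron RNA was therefore present in both fractions, and the GFP- fraction was no neuron-free control.

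Of 19505 genes, GFP+ cells had more signal for 2871 (14.7%) and less for 2631 (13.5%) at an adjusted p under 0.05 in limma, 28.2% in all. The sizes were uneven. Rises of at least 2-fold came to 442 genes (2.27%), of which 380 (86.0%) were odorant receptors. Falls of at least 2-fold came to 1606 genes (8.23%), of which receptors made up 13.5%, and 178 of the 1389 other genes that fell this much fell at least 16-fold. Only 62 genes other than receptors rose 2-fold, 3 of them 4-fold or more. The 4 values of the fractions did not overlap in 5408 genes (27.7%).

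**Figure D1:**
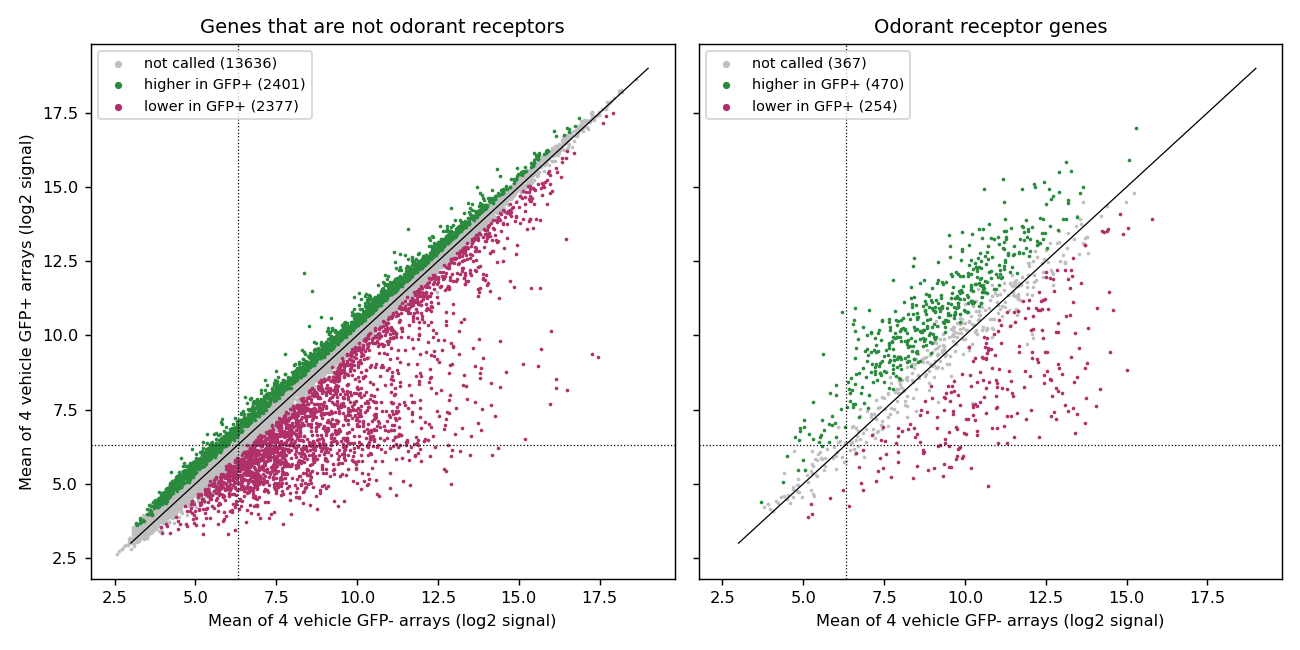
Mean log2 signal of each gene in GFP- arrays (horizontal) and in GFP+ arrays (vertical), 4 arrays each, after vehicle. Odorant receptors spread to both sides of the diagonal, while the other genes that moved far lie below it: 1389 of them were at least 2-fold lower and 62 at least 2-fold higher.

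Small differences depend on how the arrays are scaled. As deposited, the median difference of all genes was 0.13 log2, and 52.2% of called genes were higher. It was 0.46 (86.5% higher) with each array centred on its own median, 0.14 (65.0%) after quantile normalization and -0.17 (12.6%) with arrays centred on their odorant receptors. The 321 vomeronasal receptor genes, whose neurons lie in another organ, had a median of 0.26 with 36 higher and 2 lower (17 to 28 higher with 1 pool left out), and 278 of them were at or under background in every GFP+ array. Background is the 95th percentile of their means, 6.32 log2, so most of them lie under it by definition. Rises of up to about this median are no larger than the shift of genes whose neurons lie in another organ. The counts below are read beside it, although whether genes of high signal shift alike was not tested. A fraction with fewer cells of a type and one with less of that RNA per cell cannot be told apart in pooled RNA.

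Odorant receptors, the G protein-coupled receptors that define each neuron, moved in both directions. Of 1091 measured, 470 were higher, 254 lower and 367 not called, against 14.7% and 13.5% of all genes. In all, 54.7% were called and at least 2-fold different, compared with 7.88% of the other genes, and the SD of the difference was 1.88 log2 against 0.83. The falls went further than the rises. At least 4-fold changes numbered 151 higher and 137 lower, 8-fold 33 and 85, and 16-fold 6 and 44.

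The receptors that gave the strongest probe signal over the vehicle arrays went both ways. Olfr1264 read 16.97, 16.74, 17.11 and 17.13 log2 in GFP+ and 15.24, 15.38, 15.36 and 15.15 in GFP- arrays, 3.25-fold higher in GFP+ cells (1.70 log2, SE 0.12, adjusted p = 4.12e-06). The groups did not overlap. Olfr166 read 15.86 ± 0.33 in GFP+ against 13.13 ± 0.63 in GFP- cells (SD, n = 4), 6.65-fold higher, and Olfr1222 was 1.79-fold higher. Olfr55 was 3.68-fold lower, with 13.92 ± 0.37 against 15.80 ± 0.09. Olfr1197 (-0.45, adjusted p = 0.155) and Olfr1348 (-0.51, adjusted p = 0.192) did not pass the test, but both did with arrays centred on receptors (-0.75 and -0.81), and Olfr1348 also did without pool 4 (-0.86). Even strongly measured receptors therefore differed in which fraction held more of their RNA.

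Receptor genes lie in clusters on many chromosomes, and the balance of calls differed between them. On chromosome 2, which holds 284 measured receptors, 122 were higher and 74 lower (median 0.40 log2). On chromosome 7, with 232, the numbers were 110 and 31 (median 0.67), and on chromosome 9, with 132, 71 and 24 (median 0.83). Chromosome 14 had 25 higher and 7 lower of 39 (median 1.34), and chromosome 16 had 20 and 7 of 36 (median 1.12). Over all 1091 receptors the shares were 43.1% higher and 23.3% lower with a median of 0.41, so chromosome 2 was like the family, and the medians of the other 4 lay above it. Chromosomes 10 (15 higher and 22 lower of 65, median -0.14), 11 (24 and 23 of 80, -0.05), 19 (22 and 22 of 61, -0.10) and 6 (5 and 11 of 27, near 0) had medians below it. No difference between chromosomes was tested. Over 1074 pairs of neighbouring receptors, the differences correlated at r = 0.197 and 62.3% of pairs had the same sign. Neighbours often have similar sequences and may share probe signal, so this is a description.

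**Figure D2:**
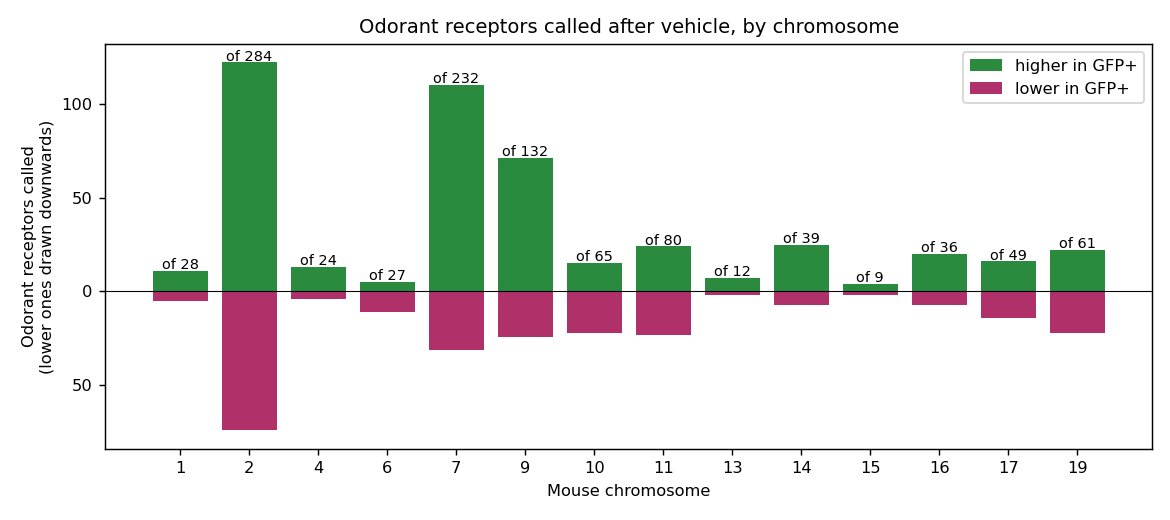
Number of odorant receptors called higher (bars upwards) and lower (bars downwards) in GFP+ cells after vehicle, by chromosome, for chromosomes with at least 9 measured receptors. The number measured is written above each bar, and every chromosome drawn holds calls in both directions.

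The spread did not come from dim receptors alone. With the receptors split into 4 equal groups from the lowest to the highest mean signal, the SD of the difference was 1.54, 2.00, 2.19 and 1.71 log2, and the medians were 0.15, 0.74, 0.61 and 0.49. The mean lay above background in at least 1 fraction for 1024 receptors. For 15 receptors every GFP+ array was at or under background while every GFP- array was above it, and for 11 it was the reverse. Receptor calls changed little with scaling compared with all genes: 619 higher and 229 lower with arrays centred on their median, 508 and 249 after quantile normalization, and 394 and 317 with arrays centred on receptors.

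Trace amine receptors, a small family that detects volatile amines and is expressed in neurons of its own, were divided in the same way. Of 15 measured, 6 were higher and 3 lower, each at least 2-fold. Taar4 read 11.43, 11.78, 11.25 and 11.52 log2 in GFP+ and 9.20, 8.25, 8.20 and 8.71 in GFP- arrays, 7.47-fold higher with no overlap (2.90 log2, SE 0.18, adjusted p = 1.7e-06). Taar9 was 4.02-fold higher, Taar7b 3.20-fold, Taar7e 2.57-fold and Taar8a 2.53-fold. Taar5 was also called higher (1.32 log2), but none of its arrays exceeded background, so no fold is given.

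Taar2 went the other way in 3 of 4 pools. It read 8.29, 10.22, 7.54 and 8.10 log2 in GFP+ and 11.44, 10.21, 11.16 and 11.37 in GFP- arrays, so that pool 2 showed no difference and the groups overlapped. The fitted fall was -2.51 log2 (SE 0.58, adjusted p = 0.00981), and it lost the call without pool 3 (-2.14, adjusted p = 0.0521). Taar7a was 3.06-fold lower. Taar6 (-1.18, adjusted p = 0.043) was lower too, but the call was lost without pool 1 (-1.02), pool 3 (-0.75) or pool 4 (-1.39). GFP+ pool 2 was also the highest of its group for Taar7a (9.84) and Taar7d (11.88), and without pool 2 Taar7d was called lower (-1.24, adjusted p = 0.00147). The remaining members Taar1, Taar3, Taar7d, Taar7f, Taar8b and Taar8c had differences from -0.78 to 0.87 and did not pass, although Taar8c did without the pool as a block (adjusted p = 0.0448). Members of the Taar7 and Taar8 groups are near-identical copies, and how far their probes separate them was not tested.

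Among the genes that are not odorant receptors, the largest rise was in Fxyd2, which encodes a regulatory subunit of the sodium-potassium pump. It read 12.48, 12.19, 11.75 and 11.94 log2 in GFP+ and 8.37, 9.11, 7.94 and 8.02 in GFP- arrays. Every GFP+ array exceeded every GFP- array by more than 2 log2, and the gene was 13.3-fold higher (3.73 log2, SE 0.17, adjusted p = 2.78e-07). Pcdh10, whose promoter is shown above, read 10.04, 10.48, 10.39 and 10.36 against 8.58, 8.71, 8.16 and 8.62 and was 3.48-fold higher (SE 0.20, adjusted p = 8.82e-05).

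Other large rises covered secretion, transport and transcription. Ptprn, a receptor-like phosphatase of dense-core vesicles, was 3.35-fold higher (10.62 ± 0.14 against 8.87 ± 0.17 log2). Avp, the vasopressin precursor, was 3.08-fold higher, Slc7a8, an amino acid transporter, 2.67-fold, and Rfx4, a transcription factor of the regulatory factor X family, 2.66-fold. Hs3st1, a heparan sulfate sulfotransferase, was 2.63-fold higher. Lrrc3b, a leucine-rich repeat gene, was 2.59-fold higher, and its level was lowest in pool 1 of both fractions, 13.42 log2 in GFP+ and 12.01 in GFP-. Akap3, an anchoring protein for protein kinase A, exceeded background in 3 of 4 GFP- arrays and rose at least 2.52-fold. These genes rose in all 4 pools and kept their direction and call under every alternative tried.

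**Figure D3:**
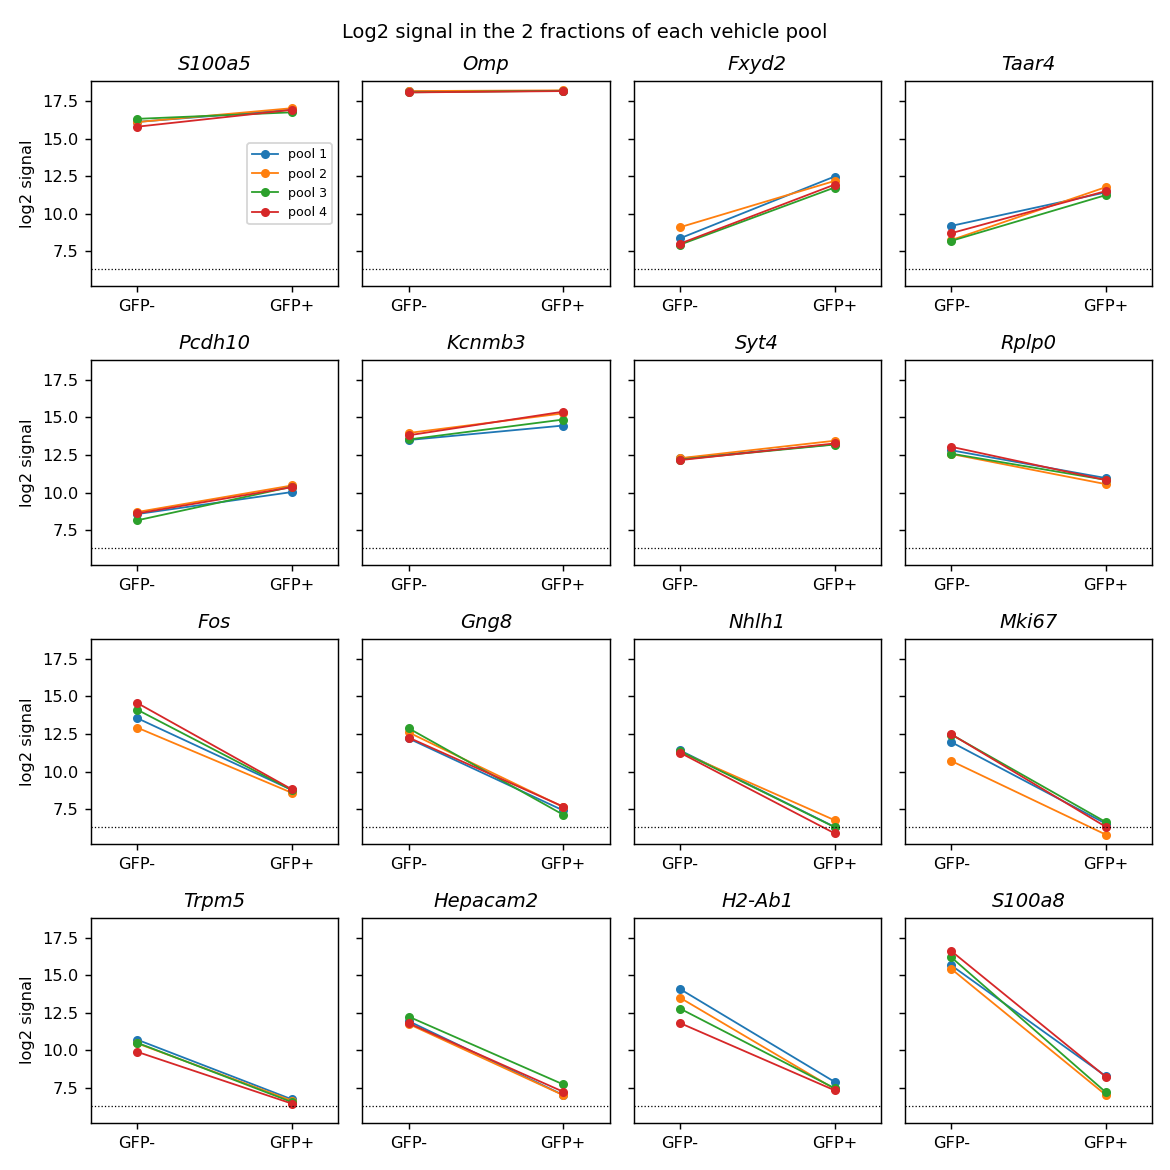
Log2 signal of 16 genes in GFP+ and GFP- cells after vehicle, with a line joining the fractions of each of the 4 pools and the background of 6.32 log2 dotted. Rises such as Fxyd2 and falls such as S100a8 have the same direction in every pool.

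Of the genes that sort olfactory axons by neural activity, 8 of 17 were called higher. These are adhesion and guidance molecules whose level in a neuron follows its firing. Of the others, 1 was lower, and the median of the 17 was 0.35 log2, while with arrays centred on receptors 6 were higher and 4 lower with a median of 0.05. After Pcdh10, the largest were Pcdh7 (2.47-fold, 12.48 ± 0.09 against 11.17 ± 0.14 log2), Pcdh8 (2.26-fold) and Epha5, an ephrin receptor (1.97-fold). The member called lower was Plxnc1, a semaphorin receptor (-0.43), named here after its value was seen, and its call was lost in each fit that left out 1 pool (-0.29 to -0.48). Clustered protocadherins, the homophilic adhesion proteins that give neurons surface identities, were 11 higher and 0 lower of 20 (median 0.54), and 7 to 9 were higher with 1 pool left out. Pcdhb5 was at least 2.14-fold higher, Pcdhb14 1.73-fold and Pcdhb8 1.66-fold. Of the 20, 3 stayed higher with arrays centred on receptors, and the median was 0.23.

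Of 18 genes that place axons by position, 4 were higher and 2 lower, near the shares of all genes. The higher count was 2 without pool 3 or 4 and in the fit without the pool as a block, and with arrays centred on receptors 1 was higher and 5 lower. Plxna3, a plexin, was 1.70-fold higher (12.51 ± 0.05 against 11.75 ± 0.17 log2) and Slit1, a repellent ligand, was 0.58 log2 higher. Dpysl3, a growth cone protein also on the list of immature neurons, was 13.7-fold lower. The other fall was Sema3a, a repellent ligand (-0.64), named after its value was seen, whose call was lost without pool 1 (-0.41), 3 (-0.59) or 4 (-0.70). Dorsal and ventral zone genes, 4 measured of each, gave no call at an adjusted p under 0.05 in limma.

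As deposited, the odor transduction genes themselves were nearly level between the fractions. Of 12, 2 were higher and 0 lower, with a median of 0.17. Ano2, the calcium-activated chloride channel of olfactory cilia, read 17.07, 17.00, 17.02 and 16.92 log2 in GFP+ and 16.49, 16.57, 16.47 and 16.48 in GFP- arrays, a 1.41-fold rise without overlap (adjusted p = 0.00193). Adcy3, the adenylyl cyclase, was 1.24-fold higher, but its call was lost without pools 1, 3 or 4 (0.28 to 0.30 log2). With arrays centred on receptors neither passed (0.20 and 0.00), and no member did. All 12 were called higher with arrays centred on their median (list median 0.507). Mature neuron genes gave 4 higher and 0 lower of 10 (median 0.19), with 2 to 4 higher when 1 pool was left out. With arrays centred on receptors 0 were higher, and the list median was -0.11. With arrays centred on their median 10 were higher, and it was 0.525. As deposited, these medians were no larger than the vomeronasal median of 0.26, which was 0.592 with arrays centred on their median. The vomeronasal list means were 4.768 to 5.065 log2 in single arrays, against 16.685 to 17.045 for mature neuron genes. Whether genes at such different levels shift alike was not tested.

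Termination of the odor response involves 12 of the genes measured, with 6 called higher and 2 lower, and 4 were higher without pool 1, 2 or 4. Slc8a1, a sodium-calcium exchanger, read 12.40, 12.25, 12.35 and 12.05 log2 in GFP+ and 11.54, 11.19, 11.02 and 11.08 in GFP- arrays and was 2.08-fold higher. Pde1c, a calcium-activated phosphodiesterase, and Slc24a4, a potassium-dependent exchanger, were each 1.59-fold higher. Rgs2, a regulator of G protein signaling, ran against them, with 4.83, 4.39, 4.87 and 5.36 in GFP+ and 11.37, 10.44, 11.01 and 11.29 in GFP- arrays. No GFP+ array exceeded background, so Rgs2 was at least 26.1-fold lower (adjusted p = 1.2e-07). The other lower member, Grk3, a receptor kinase, was under background in every GFP+ array. Blood cell genes, described below, fell with it, and their part in the fall of Rgs2 was not tested. The list stood at 3 higher and 3 lower with arrays centred on receptors.

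Receptor chaperones and factors of receptor choice were mostly level as deposited, with 2 higher and 2 lower of 25 (median 0.06), and 1 higher without pool 1, 3 or 4. Reep1, which helps receptors reach the membrane, was 1.45-fold higher (13.70 ± 0.10 against 13.16 ± 0.08 log2). Lbr, the lamin B receptor, whose absence from mature neurons allows receptor genes to gather in the nucleus, was 3.55-fold lower. It read 10.55, 10.39, 10.57 and 10.30 in GFP+ and 12.50, 11.91, 12.05 and 12.65 in GFP- arrays, without overlap (SE 0.17, adjusted p = 2.65e-05). Of the 25, 0 were higher and 9 lower with arrays centred on receptors, and 15 higher and 1 lower with arrays centred on their median.

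Ion channel genes gave more higher than lower calls as deposited. Potassium channel genes gave 24 higher and 7 lower of 88, and sodium, calcium and HCN channel genes 13 and 1 of 38. Kcnmb3, a subunit of calcium-activated potassium channels, was 2.45-fold higher, with 14.46, 15.27, 14.86 and 15.39 log2 in GFP+ and 13.50, 13.97, 13.54 and 13.81 in GFP- arrays. Scn4b, a sodium channel subunit, was 1.91-fold higher (15.36 ± 0.12 against 14.43 ± 0.18) and Scn8a, a pore-forming subunit, 1.56-fold. Kcnip3, which binds both channels and DNA, was 2.74-fold lower, and Cacng4 1.60-fold lower. With arrays centred on receptors the counts were 6 and 10 for potassium channels and 1 and 3 for the others, and with 1 pool left out the higher members numbered 14 to 18 and 5 to 11.

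Genes of synaptic release and of ciliary transport had medians about the size of the vomeronasal shift. Presynaptic genes gave 15 higher and 0 lower of 37 (median 0.29). Syt4, a synaptotagmin, read 13.21, 13.45, 13.20 and 13.27 log2 in GFP+ and 12.27, 12.29, 12.20 and 12.16 in GFP- arrays and was 2.07-fold higher. Syn2, a synapsin, and Sv2b, a vesicle protein, were each 1.83-fold higher. Intraflagellar transport and BBSome genes, which carry cargo along cilia, gave 17 higher and 0 lower of 34 (median 0.30), the largest being Dync2h1, the motor of return transport (1.53-fold), whose call was lost in the fit without the pool as a block (adjusted p = 0.0931). With arrays centred on receptors the counts were 3 higher and 2 lower for presynaptic genes and 0 and 0 for ciliary transport. With 1 pool left out, 8 to 13 and 7 to 10 were higher.

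Of 28 genes of motile cilia, 15 were higher, 0 lower and 13 not called (median 0.46). Ccdc113 read 8.78, 8.62, 8.02 and 8.19 log2 in GFP+ and 7.16, 7.97, 7.00 and 7.82 in GFP- arrays, 1.88-fold higher (adjusted p = 0.0216), and its call was lost without pool 1 (0.68) and without pool 3 (0.88). Tmem212 was 1.76-fold higher and kept its call in each fit with 1 pool left out. It had 1 higher and 1 lower with arrays centred on receptors, and with 1 pool left out 9 to 14 were higher.

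**Figure D4:**
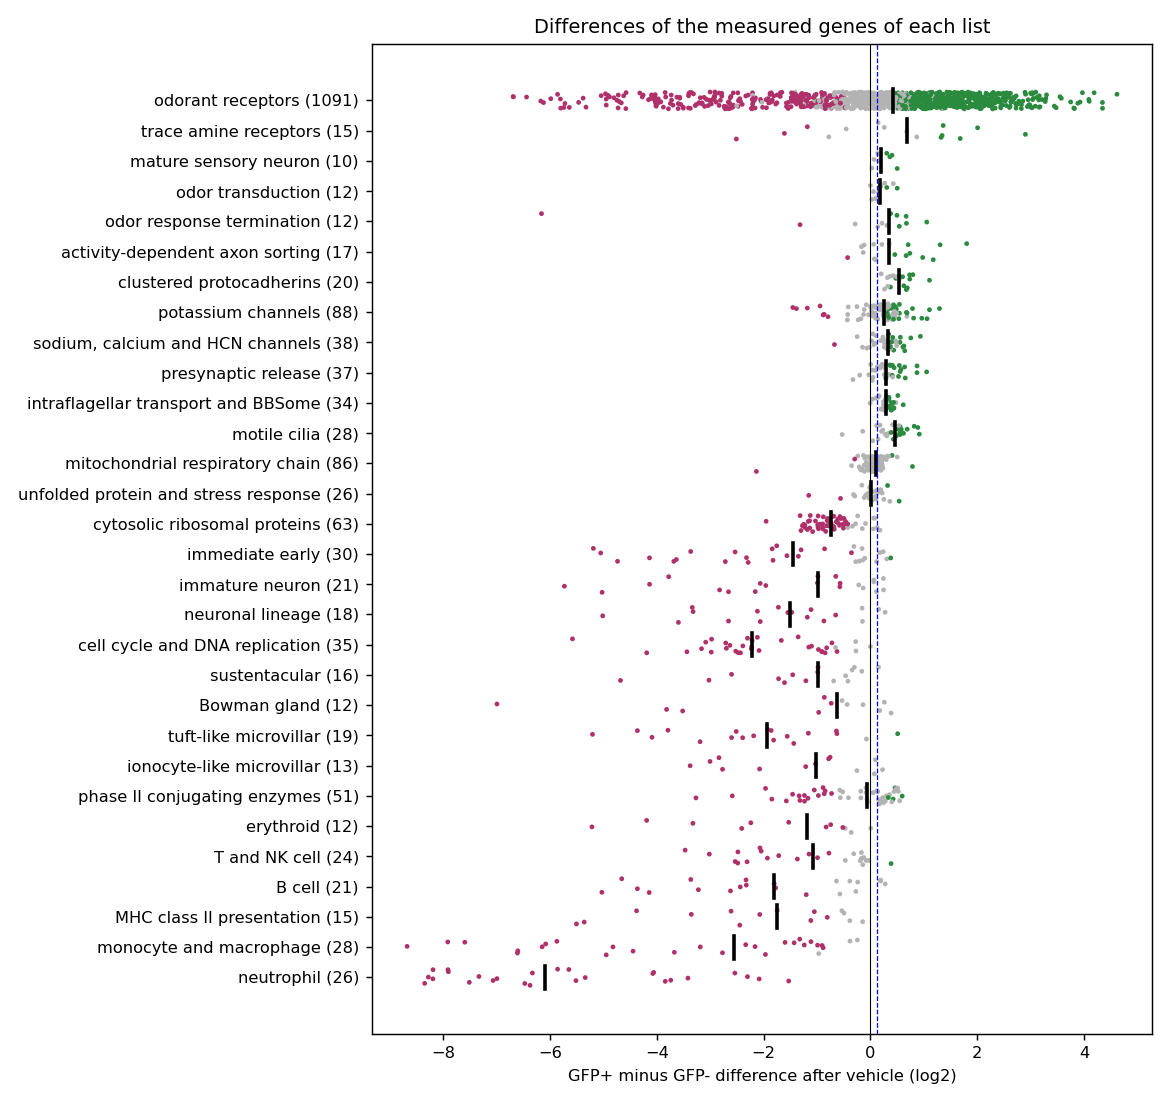
GFP+ minus GFP- difference (log2) of each gene after vehicle, by gene list, with called genes in green (higher) and magenta (lower), others in grey, the list's median as a black bar and the median of all genes (0.13 log2) as a dashed line. Neuronal and ciliary lists lie a little above 0, and blood, dividing and microvillar lists far below it.

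Immediate early genes, which neurons and other cells induce within minutes of stimulation, were lower in GFP+ cells. Of 30, 19 were lower and 1 higher, and 17 of the falls were at least 2-fold. Fos read 8.77, 8.58, 8.77 and 8.82 log2 in GFP+ and 13.55, 12.92, 14.11 and 14.56 in GFP- arrays, 33.2-fold lower without overlap (-5.05 log2, adjusted p = 1.63e-07). Zfp36, which destabilises cytokine messages, was 36.5-fold lower, and Btg2, an antiproliferative gene, 17.6-fold. Ier3 was at least 23.7-fold lower, with 2 of 4 GFP+ arrays above background.

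The fall did not extend to every activity-regulated member. Arc (0.11 log2), Npas4 (0.24) and Egr3 (0.30) did not pass as deposited, but were called higher with arrays centred on their median (0.45, 0.57 and 0.64). Npas4 was under background in all arrays. Jun (-0.31, adjusted p = 0.0516) did not pass either. The member called higher was Dusp5, a phosphatase (0.38 log2), whose call was lost without pool 1 (0.40), 3 (0.37) or 4 (0.33). With arrays centred on receptors 0 members were higher and 25 lower, and with arrays centred on their median 5 and 18. These members were named after their values were seen. GFP- pool 2 stood below the other GFP- arrays, with a list mean of 9.53 against 10.25 in the highest array. Without pool 2 the counts were the same, 19 lower and 1 higher. Genes of blood cells were low in GFP+ cells in the same arrays, and their part in the fall was not tested.

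Immature neuron genes were lower. Of 21, 14 were lower and 0 higher, 9 by at least 2-fold (median -0.98). Cxcr4, a chemokine receptor found in progenitors and in leukocytes, read 5.99, 6.46, 6.75 and 7.21 log2 in GFP+ and 12.61, 11.90, 12.14 and 12.68 in GFP- arrays, at least 50.2-fold lower. Gng8, a G protein subunit of immature neurons, was 32.6-fold lower, and Gap43, a growth cone protein and the defining marker of this stage, 7.09-fold lower (9.85 ± 0.38 against 12.68 ± 0.21). Gap43 remained above background in all GFP+ arrays.

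Transcription factors and surface genes of the neuronal lineage followed, with 14 lower and 0 higher of 18 (median -1.51). Nhlh1, a helix-loop-helix factor of late precursors, read 6.32, 6.76, 6.30 and 5.89 log2 in GFP+ and 11.41, 11.31, 11.36 and 11.25 in GFP- arrays and was at least 29.9-fold lower. The 4 GFP- arrays lay close together and far above every GFP+ array. Kit, a receptor of globose basal cells, was at least 9.75-fold lower, Tex15 10.1-fold and Gadd45g, a growth arrest gene, 10.0-fold.

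Cell cycle and DNA replication genes were lower in 31 of 35 and higher in 0, 24 by at least 2-fold (median -2.22). Mki67, a protein of dividing nuclei, read 6.53, 5.80, 6.63 and 6.31 log2 in GFP+ and 11.95, 10.70, 12.46 and 12.48 in GFP- arrays and was at least 43.7-fold lower. Ccnb2, a mitotic cyclin, was at least 17.3-fold lower, and Rrm2, a subunit of ribonucleotide reductase, 10.8-fold. GFP- pool 2 was the lowest array of its group for these 3 genes, and the list mean there was 8.25 against 9.12 in the highest. Without pool 2, 32 were lower. Both dividing progenitors and dividing blood cells express these genes, and their shares were not tested.

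Genes of cytosolic ribosomal proteins fell broadly and by little. Of 63, 52 were lower and 0 higher, 14 by at least 2-fold, with a median of -0.74 log2. Rplp0 read 10.97, 10.56, 10.85 and 10.83 log2 in GFP+ and 12.82, 12.57, 12.59 and 13.05 in GFP- arrays, 3.88-fold lower. Rps9 was 2.49-fold lower, Rps16 2.46-fold and Rps20 2.42-fold. After centring on the median, 36 were lower and 4 higher. Many ribosomal protein genes have near-identical pseudogenes that may share probe signal. As deposited, mitochondrial respiratory chain genes were nearly level, with 2 higher (Cox7a1, 1.72-fold, and Ndufv3) and 2 lower (Cox6b2 and Atp5g2) of 86. With arrays centred on their median 69 were higher and 1 lower, and with arrays centred on receptors 0 and 9. The call of Ndufv3 (0.40) was lost without pool 1 (0.27), 2 (0.47) or 4 (0.35), and that of Atp5g2 (-0.30) in each fit with 1 pool left out (-0.26 to -0.32), while with arrays centred on their median Atp5g2 stood at 0.04. Genes of the unfolded protein response gave 2 higher and 2 lower of 26 as deposited. The counts were 19 and 1 with arrays centred on their median, and 0 and 7 with arrays centred on receptors. The 2 called higher as deposited, Dnajb9 and Trib3, lost their calls without pool 1, 3 or 4 and in the fit without the pool as a block. Of those lower as deposited, Edem1, which directs misfolded proteins to degradation, was 2.23-fold lower (10.05 ± 0.10 against 11.21 ± 0.32).

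Genes of the sustentacular list were lower in 9 of 16 and higher in 0 (median -0.98). Hepacam2, an adhesion protein gene, read 7.03, 7.02, 7.74 and 7.25 log2 in GFP+ and 11.95, 11.76, 12.25 and 11.81 in GFP- arrays, 25.7-fold lower. The keratin genes Krt18 (8.14-fold) and Krt8 (6.07-fold) and the mucin Muc1 (3.30-fold) were lower as well. Which cells the signal of Hepacam2, the keratins and Muc1 came from was not tested. The defining marker Cyp2g1, a P450 enzyme, changed less, 1.97-fold lower, read 14.75 ± 0.44 even in GFP+ cells, and lost its call without pool 1 (-0.83) or 2 (-0.81). Sustentacular RNA was therefore well measured in both fractions.

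Bowman gland genes gave 6 lower and 0 higher of 12. Ltf, lactoferrin, read 6.36, 6.21, 7.85 and 6.90 log2 in GFP+ and 13.50, 13.63, 13.87 and 14.28 in GFP- arrays, at least 125-fold lower. Ltf is also a granule protein of neutrophils, whose genes fell alike. Sox9, the defining marker of the glands, was 14.1-fold lower and Aqp5, a water channel, 1.96-fold. Odorant-binding and mucus protein genes gave 4 lower and 0 higher of 19 (median -0.14), with 2 lower without pool 2 and 1 in the fit without the pool as a block. Scgb1c1, a secretoglobin, read 10.76, 10.22, 11.38 and 10.65 in GFP+ and 12.60, 13.12, 13.23 and 12.87 in GFP- arrays and was 4.61-fold lower. In pool 3 both fractions were high for Obp2a, an odorant-binding protein, at 15.07 in GFP+ and 15.47 in GFP- cells. Its call was lost in each fit that left out 1 pool and in the fit without the pool as a block, where Bpifa1 (adjusted p = 0.214) and Bpifb3 (adjusted p = 0.0586) lost theirs too.

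Genes of microvillar cells were mostly lower. Tuft-like genes gave 17 lower and 1 higher of 19 (median -1.93). Alox5, a lipoxygenase that leukocytes also express, read 5.22, 4.94, 5.25 and 5.28 log2 in GFP+ and 10.31, 9.94, 10.46 and 10.81 in GFP- arrays, at least 16.7-fold lower. Trpm5, the cation channel that defines these cells, was 13.9-fold lower (6.61 ± 0.12 against 10.40 ± 0.35). The member called higher was Tas1r3, a taste receptor subunit above background in 1 of 8 arrays (0.51 log2). It was named after its value was seen, and its call was lost without pool 1 (0.44), 2 (0.50) or 3 (0.46).

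Ionocyte-like genes gave 9 lower and 0 higher of 13 (median -1.03). Foxi1, the transcription factor that defines these cells, read 8.30, 7.49, 7.14 and 7.90 log2 in GFP+ and 11.51, 10.68, 10.85 and 11.30 in GFP- arrays, 10.4-fold lower. Cftr, a chloride channel, was 7.15-fold lower and Atp6v0d2, a proton pump subunit, at least 4.45-fold.

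Many genes of the other stromal and basal lists were near background in both fractions. The mean exceeded background in at least 1 fraction for 2 of 9 horizontal basal and 4 of 14 endothelial genes. It did so for 7 of 15 fibroblast and mural, 7 of 12 glial and 3 of 10 bone genes. Of 9 horizontal basal genes, 3 were lower, and their defining marker Krt5 was under background in all arrays. The 3 were Itga6, an integrin (1.63-fold, with the call lost without pool 1 at -0.67 or 4 at -0.55), and Icam1 and Egfr, which exceeded background in 1 and 0 arrays. Endothelial genes gave 3 lower of 14, with Pecam1 at least 1.68-fold lower and Tek and Eng above background in 1 and 0 arrays. Fibroblast and mural genes gave 1 higher and 2 lower of 15, of which Rgs5, a regulator of G protein signaling in pericytes, fell by 4.00 log2 (9.59 ± 0.59 against 13.59 ± 0.26), while the defining marker Col1a1 did not pass (0.24 log2). Dcn, a matrix proteoglycan, was 1.75-fold lower, but not without pool 1 (-0.65), 2 (-0.55) or 4 (-0.97), and Postn, called higher, was under background in all arrays. Glial genes gave 1 higher (Fabp7, 0.52 log2, with the call lost without pool 1, 2 or 3 at 0.39 to 0.49) and 4 lower (Sox10, Erbb3, Cnp and Apoe) of 12. Apoe, an apolipoprotein that macrophages also make, was 2.77-fold lower with GFP+ pool 1 the lowest array, and its call was lost without pool 1 (-1.13) or pool 2 (-1.42). Bone genes gave 2 higher (Col2a1, under background in all arrays, and Acan, 1.29-fold, whose call was lost without pool 1, 2 or 4 at 0.33 to 0.37) and 1 lower of 10, Acp5, an osteoclast phosphatase, at least 7.19-fold. Members outside the naming rule were named after their values were seen.

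The necklace and type B neuron list, for neurons that use a guanylyl cyclase pathway, gave 7 lower and 1 higher of 14. The higher one, Cnga3, and the defining marker Gucy2d were under background in every array. Ms4a6c, a gene that macrophages also express, read 5.75, 6.41, 6.09 and 6.88 log2 in GFP+ and 10.20, 10.46, 10.54 and 10.80 in GFP- arrays, at least 16.2-fold lower. Pde2a, the phosphodiesterase of necklace neurons, was 8.81-fold lower, and which cells its signal came from was not tested. The type B marker Gucy1b2 was level (7.20 ± 0.40 against 7.12 ± 0.18, adjusted p = 0.768).

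Enzymes that clear odorants and toxins had calls in both directions. Cytochrome P450 genes gave 9 higher and 7 lower of 73, shares no larger than those of all genes, with 46 of the 73 at or under background in every GFP+ array. Cyp1a2 read 8.45, 8.55, 9.34 and 8.96 log2 in GFP+ and 10.35, 10.91, 10.09 and 9.80 in GFP- arrays, 2.74-fold lower, and Cyp4f18 was 2.12-fold lower. The family stood at 4 higher and 4 lower without pool 1, 7 and 2 without pool 2, and 0 and 15 with arrays centred on receptors. Phase II conjugating enzymes gave 4 higher and 17 lower of 51, and of the 4 (Ugt2b35, Ugt2b37, Sult2a2 and Sult4a1) only Sult4a1 (0.33 log2) exceeded background, and its call was lost in each fit with 1 pool left out (0.29 to 0.36). Without pool 3 or 4 the list had 1 higher. Mgst1, a microsomal glutathione transferase, read 8.75, 9.56, 9.32 and 9.18 in GFP+ and 12.16, 12.25, 12.51 and 12.96 in GFP- arrays, 9.64-fold lower, and Gstp1 was 3.91-fold lower. Alcohol and aldehyde dehydrogenases gave 1 higher (Aldh7a1, 1.38-fold, but not called without the pool as a block, with adjusted p = 0.0695, or with arrays centred on receptors, at 0.17) and 4 lower (Aldh9a1, at least 5.61-fold, Aldh1a1, 1.81-fold, and Aldh6a1 and Aldh3a2) of 25. Aldh6a1 (-0.42) lost its call without pool 1 (-0.34) or 4 (-0.40), and Aldh3a2 (-0.29) in each fit with 1 pool left out, with a value of 0.04 with arrays centred on their median. Of 20 Bcl2 family genes, 6 were lower and 0 higher, with 3 lower without pool 1. Bcl2a1a lost its call in each fit with 1 pool left out (-0.60 to -0.77) and Bcl2a1d without pool 1 (-0.72) or 3 (-0.92), while Mcl1, a survival factor, was 2.83-fold lower (12.03 ± 0.28 against 13.53 ± 0.26).

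Blood cell genes had the largest falls. All 26 neutrophil genes were lower, each at least 2-fold, with a median of -6.10 log2. Retnlg, a resistin-like protein, read 8.49, 7.82, 7.46 and 8.85 log2 in GFP+ and 16.07, 16.39, 16.45 and 17.09 in GFP- arrays. It was 326-fold lower, and every GFP+ array stayed above background. Within the GFP- fraction the mean of the list ran from 11.75 to 12.96 log2 and in GFP+ from 6.20 to 6.78, so the fractions were far apart in each pool.

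Monocyte and macrophage genes gave 25 lower and 0 higher of 28 (median -2.55). Ly6c2, a surface protein of inflammatory monocytes, read 6.52, 6.51, 6.12 and 6.85 log2 in GFP+ and 14.85, 14.95, 15.22 and 15.69 in GFP- arrays, at least 396-fold lower. Spi1, the gene of the myeloid factor PU.1, was 97.8-fold lower, and the defining marker Csf1r 6.83-fold (7.58 ± 0.54 against 10.35 ± 0.20). Fn1, fibronectin, was at least 96.4-fold lower.

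Lymphocyte genes fell by amounts that varied between pools. B cell genes gave 13 lower and 0 higher of 21. Jchain, the joining chain of secreted antibodies, read 6.44, 5.16, 4.78 and 4.91 log2 in GFP+ and 11.26, 9.90, 10.22 and 10.02 in GFP- arrays, with 1 of 4 GFP+ arrays above background and no overlap (adjusted p = 2.56e-05). The defining marker Cd79a read 12.86, 11.79, 11.00 and 9.41 in GFP- arrays and 6.55 to 6.69 in GFP+ arrays. The B cell list mean in GFP- arrays was lowest in pool 4 (7.14) and highest in pool 1 (8.76), while the neutrophil list mean was highest in pool 4. The list means of the GFP- pools thus ranked differently for B cells and neutrophils. T and NK cell genes gave 14 lower and 1 higher of 24, with Il7r, an interleukin receptor, at least 9.28-fold lower and the defining marker Cd3e at least 1.94-fold. The higher member was Eomes, a T-box factor (0.39), named after its value was seen, with the call lost without pool 2 (0.40), 3 (0.39) or 4 (0.33).

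Erythroid genes gave 9 lower and 0 higher of 12. Car1, carbonic anhydrase 1, read 5.57, 6.97, 6.38 and 6.32 log2 in GFP+ and 12.15, 9.73, 12.12 and 12.11 in GFP- arrays, at least 32.7-fold lower. Pool 2 was the exception among GFP- arrays, and the erythroid list mean there was 8.60 against 9.90 in the highest array. Without pool 2, 10 were lower. The hemoglobin genes were not analysed here.

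Antigen presentation and signaling genes of immune cells fell with them. MHC class II genes gave 11 lower and 0 higher of 15. H2-Ab1 read 7.90, 7.43, 7.48 and 7.34 log2 in GFP+ and 14.08, 13.50, 12.78 and 11.82 in GFP- arrays, 45.4-fold lower, with GFP- values that ranked like those of Cd79a. Chemokines and their receptors gave 18 lower and 4 higher of 55. Ccr2, which monocytes use to leave the blood, read 4.97, 4.63, 4.81 and 4.03 in GFP+ and 11.20, 10.93, 11.23 and 11.50 in GFP- arrays, at least 29.8-fold lower. The 4 that rose were Cx3cl1, fractalkine (0.75 log2), and Ccl24, Ccl26 and Ccr4, which exceeded background in no GFP- array. Ccl24 lost its call without pool 1 (0.58) or 4 (0.51) and Ccr4 without pool 2 (0.55), 3 (0.41) or 4 (0.49), and without pool 4 the list had 2 higher. They were named after their values were seen.

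Interferon-stimulated genes were mostly lower where called. Of 35, 14 were lower (40%) and 3 higher (8.57%), against 13.5% lower and 14.7% higher of all genes. Ifitm3, a membrane protein that restricts viruses, read 6.45, 5.54, 5.86 and 6.30 log2 in GFP+ and 11.58, 11.55, 11.94 and 12.42 in GFP- arrays, at least 46.0-fold lower. The 3 that rose, named after their values were seen, were Ifit1 (11.24 ± 0.27 against 10.13 ± 0.31, 2.15-fold), Mx2 (1.74-fold) and Ddx58, an RNA sensor (0.37 log2), whose call was lost in each fit that left out 1 pool (0.28 to 0.43). With arrays centred on receptors Ifit1 stayed called (0.81) and Mx2 did not (0.50, adjusted p = 0.0577).

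The family of the reporter gene itself was split. Of 16 S100 genes measured, 4 were higher and 6 lower. Apart from S100a5, the higher members were S100a13 (10.28 ± 0.22 against 9.66 ± 0.21 log2, 1.54-fold), S100a3 (0.63 log2, whose call was lost without pools 1, 2 or 4, at 0.45 to 0.65) and S100a2 (0.58 log2, at or under background in 6 of 8 arrays, and not called without pool 3, at 0.46). After centring on receptors, S100a5 alone stayed called higher (0.52).

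The members that fell included S100a8, a neutrophil gene. Which cells the signal of the fallen members came from was not tested. S100a8, whose promoter is shown above, read 8.27, 7.02, 7.20 and 8.23 log2 in GFP+ and 15.65, 15.41, 16.18 and 16.60 in GFP- arrays, 311-fold lower (-8.28 log2, SE 0.52, adjusted p = 1.64e-06). Its partner S100a9 was 241-fold lower, S100a11 56.8-fold, S100a6 5.69-fold, S100a10 5.50-fold and S100a4 3.90-fold. S100a1, S100a14, S100a16, S100b, S100g and S100z had differences from -0.35 to 0.39 and did not pass, although S100g did without pool 4 (0.57, adjusted p = 0.022).

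The same contrast was available in the octanol pools, which share no arrays with the vehicle pools but entered the same estimate of spread. Of 5502 genes called after vehicle, 5396 had the same sign after octanol, and of 2048 that were also at least 2-fold different, 2048 did. The share of all 19505 genes with the same sign was not counted, so these counts have no background beside them. Fxyd2 differed by 3.73 log2 after vehicle and 3.64 after octanol, Taar4 by 2.90 and 3.28, Fos by -5.05 and -5.07, Gng8 by -5.03 and -4.18 and S100a8 by -8.28 and -7.38. In the test of the difference between the exposures, 0 of 19505 genes (0%) passed at an adjusted p under 0.05 in limma, with a smallest adjusted p of 0.863. At an unadjusted p under 0.05 there were 886 (4.54%). Of the 194 genes named by rule, 19 had an unadjusted p under 0.05. A difference between exposures was therefore not detected, which does not show that the fractions differ equally after both.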

How the data were processed

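RNA of sorted GFP+ and GFP- cells was measured on Clariom S arrays from 50 to 100 ng of total RNA. The authors deposited 1 log2 value per probe set and array, made in Affymetrix Expression Console per the submitters' processing notes. Its version is not given in the sources used here, nor are its settings. Medians of single arrays lay between 7.42 and 7.70 and single values between 2.22 and 18.70, and no further scaling was applied. The arrays hold 28846 probe sets, 6640 of them controls and 19572 with 1 gene symbol. Of several for 1 gene the one with the highest mean was kept (67 dropped), which left 19505 genes, all matched to RefSeq genes of GRCm38.p6. The number of arrays limits the precision.

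One limma 3.58.1 model (lmFit, then eBayes, 2-sided) in R 4.3.3 covered all 16 arrays. Pools entered as a fixed block, which left 6 residual degrees of freedom. Adjustment was by Benjamini-Hochberg over 19505 genes, and SE is the moderated standard error. The pairing of fractions is inferred, because 24 mice make 8 pools of 3. Residuals of a vehicle pool's fractions correlated at 0.143, 0.148, 0.0779 and 0.216, against a mean of -0.0487 for different numbers. On simulated data for this comparison over 19505 genes, the fit recovered 81% of 100 changes of 1 log2 and 98% of 100 changes of 2 log2, with 8 false calls. The simulated noise was independent and normal, without pool effects or shifts in scale between arrays. These rates therefore do not cover errors that come from scaling or pools.

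A fold is given as "at least" where a group has arrays at or under background, with its values raised to it. Genes were named by rule: S100a5 and Omp, the 12 largest rises and 8 largest falls that are not odorant receptors, up to 4 members per list, the 6 receptors of highest mean, and every Taar and S100 gene. The rule asks for a call, the same sign in all 4 pools and every array of the higher fraction above background. The comparison, the 48 gene lists and the rule were chosen with earlier results of these data known. After a first fit had been seen, the receptor list was widened to symbols with suffixes (1091 genes, brought on by a receptor pseudogene among the largest other rises), the vomeronasal list was widened to 321 genes, which moved the background slightly, and a binding protein that had passed the test was dropped from the S100 list because it is no family member. Receptor classes were also counted and are not reported. Of the list entries, 63 were not matched to a tested gene. Alternatives were the fit without the block, the vehicle arrays alone, 3 other scalings, a filter at background, the mean of probe sets, another variance prior, and leaving out each pool.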

Additional observations from a re-analysis of the deposited data

Results flagged for a closer look

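Of 388 groups of 4 arrays of named genes, 21 had 1 array far from the other 3, by a criterion that chance meets in about 1 of 20 groups. GFP- pool 2 was that array in 10. It was low for Zfp36 (11.06 log2), Btg2 (10.91), Rrm2 (8.96), Car1 (9.73), Slc4a1 (11.62) and Kcnip3 (7.59), and high for Rtp2 (15.33), Dnajb9 (15.60), Pcdhb14 (11.25) and S100a13 (9.98). GFP+ pool 4 was low for Deup1 (7.16), Ccl6 (6.12) and Ift80 (14.36) and high for Spi1 (9.43) and Klrb1c (4.97). GFP+ pool 3 was low for Atp5g2 (14.86). GFP- pool 1 was low for Cyp2a5 (14.77) and S100g (5.05) and high for Bcl2a1b (7.54), and GFP- pool 4 was high for S100a1 (7.42) and S100a6 (10.66).

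Outside the genes tested, 2634 probe sets that are not controls carry no single gene symbol. Fitted on their own in limma, 226 rose and 236 fell in the GFP+ fraction of the vehicle pools at a p under 0.05 adjusted over these 2634.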

How the results depend on the processing

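The scaling of the arrays moved the counts of all genes most. Against 2871 genes higher as deposited, 12759 were higher with arrays centred on their median, 4561 after quantile normalization and 630 with arrays centred on receptors, and 1724 to 2063 with 1 pool left out. Against 2631 lower, 4387 were lower with arrays centred on receptors. With 1 pool left out, 2275 to 2381 genes were lower, 420 to 463 receptors higher and 227 to 250 lower. The fit without the replicate block gave 2456 higher and 2535 lower, with 459 receptors higher and 246 lower, and the vehicle arrays alone with the block gave 2317 and 2498. The difference between exposures had 0 calls in limma in each fit but 1, where trend and robust estimation of the variance called 1 gene, Olfr95 (adjusted p = 0.0358). Of the genes named by rule and called as deposited, Atp5g2 alone changed sign, to 0.04 log2 with arrays centred on their median. So did Aldh3a2 (0.04), which the rule does not name. Omp, not called as deposited, also changed sign, to -0.02 after quantile normalization and -0.24 with arrays centred on receptors. Of 194 named genes, 29 lost the call with arrays centred on receptors, 10 with arrays centred on their median, 13 without the block and 12 to 22 with 1 pool left out, while centring on the median gave 8 others a call and centring on receptors 4. The number of arrays and, for genes near 6.32 log2, the signal over background limit the small differences. The cause of the shifts between scalings was not tested.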
